A study of Mus musculus with 6 samples.

Results

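The genes described here mark the blood vessels of the hippocampus. They are 7 endothelial genes, Cldn5, Flt1, Pecam1, Slco1a4, Slc2a1, Ly6c1 and Abcb1a, and 3 pericyte genes, Pdgfrb, Rgs5 and Vtn. They were chosen by name, as every isoform of these 10 genes in the deposited counts, which gave 43 of 133944 isoforms and 10 of 53354 gene symbols. Of the 43 isoforms, 36 had counts in at least 1 mouse and 25 passed the filter on low counts, and all 10 genes passed it as sums of their isoforms. RNA was sequenced from the hippocampi of 3 N-cre mice and 3 N-cre;Fox1 mice, all 3 months old and of the C57BL/6 strain, with 1 library per mouse. N-cre mice carried Cre recombinase under the nestin promoter (Nes-Cre). N-cre;Fox1 mice carried Nes-Cre as well, and 1 copy of an Rbfox1 cDNA placed in Gt(ROSA)26Sor behind the CAG promoter and a loxP-flanked stop cassette. All 6 mice therefore carried Cre, and the genotypes differed by the Rbfox1 allele. Nestin is a gene of neural progenitors, and a reporter cross in the study showed Nes-Cre activity in granule and pyramidal neurons of the hippocampus. The study describes Cre in the hippocampus, and with it the added Rbfox1, as restricted to neurons, and the counts hold no measure of Cre in vascular cells. The comparison asks whether the RNA of these cells differed in the same tissue.

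Endothelial cells line the capillaries of the brain and form the blood-brain barrier with tight junctions, few vesicles and a set of transporters that carry sugar, amino acids and organic anions, while efflux pumps return foreign compounds to the blood. Pericytes lie on the outer face of the capillary in a shared basement membrane, and need PDGF-B from the endothelium to be recruited and kept. Both cell types are a small part of a dissected hippocampus, and in RNA of whole tissue fewer cells of a type and less RNA per cell cannot be told apart.

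The read pairs that RSEM assigned to isoforms, taken as the sum of the expected counts, numbered 40463587 to 62141336 in N-cre mice, and in N-cre;Fox1 mice 54352011 to 59362399. Levels are given as CPM, counts per 1000000 counts of a library after TMM normalization, unless another scale is named. Rbfox1 itself, summed over isoforms, was at 288, 273 and 277 CPM in the N-cre group and 300.5, 256 and 288 CPM in the N-cre;Fox1 group, so the genotypes overlapped and the sum does not check the labels. In both groups replicate 1 stood apart in Xist, the noncoding RNA of the inactive X chromosome, with 27387 and 22347 counts against 16.9 to 22.3 in the other 4 mice. N-cre replicate 3 and N-cre;Fox1 replicate 2 held RNA of the choroid plexus. Its 8 listed genes, led by the transthyretin gene Ttr, summed to 2271 and 5111 CPM in these 2 mice and to 30.02 to 40.06 in the other 4, and none of the 8 genes was at 0 in every mouse. A fold change is N-cre;Fox1 over N-cre.

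The 10 genes, which are themselves the defining markers of their cell types, were all present in all 6 mice, at 14.7 to 122.8 CPM. CPM values favour long transcripts, so the genes were ordered by TPM, transcripts per 1000000, which divide each isoform count by its annotated length. Slc2a1 (mean 73.6 ± 15.9 TPM, SD, n = 6), Vtn (70.6 ± 4.30) and Ly6c1 (67.1 ± 8.89) stood highest, and their ranges over the mice overlapped. Rgs5 followed at 49.8 ± 2.88 TPM, with its highest mouse below the lowest of Ly6c1. Cldn5 (36.7 ± 8.73 TPM) and Slco1a4 (33.6 ± 3.09) overlapped with each other, and Cldn5 also overlapped with Rgs5. Flt1 lay apart at 20.5 ± 1.36 TPM, and Abcb1a apart from Flt1 at 13.1 ± 1.13. Pdgfrb (11.8 ± 0.87 TPM) and Pecam1 (11.6 ± 1.05) were lowest, and their ranges overlapped with each other, as did those of Abcb1a and Pdgfrb. With the longest isoform as the length of each gene, Vtn came before Slc2a1, at 81.9 against 80.0 TPM, and the other 8 genes kept their places.

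Between the genotypes none of the 10 genes passed an adjusted p of 0.05 by the quasi-likelihood test of edgeR, with p-values adjusted over 18924 genes after Benjamini and Hochberg, and the adjusted p-values lay between 0.799 and 0.995. Over all genes tested, 5 passed (0.0264%). At an unadjusted p under 0.05 the count was 1 of 10 (Vtn), where 6.19% of all genes tested passed. DESeq2's Wald test and limma-voom, which called 50 and 5 genes in all, called 0 of the 10. The log2 fold change was above 0 for 4 genes and below 0 for 6, with a median of -0.02 and a range of -0.13 to 0.31, beside a median of 0.0 over all genes tested. In 1 gene, again Vtn, all N-cre;Fox1 mice lay above all N-cre mice, as in 6.04% of all genes, and in 0 of the 10 they all lay below, as in 6.1% of all genes.

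**Figure D1:**
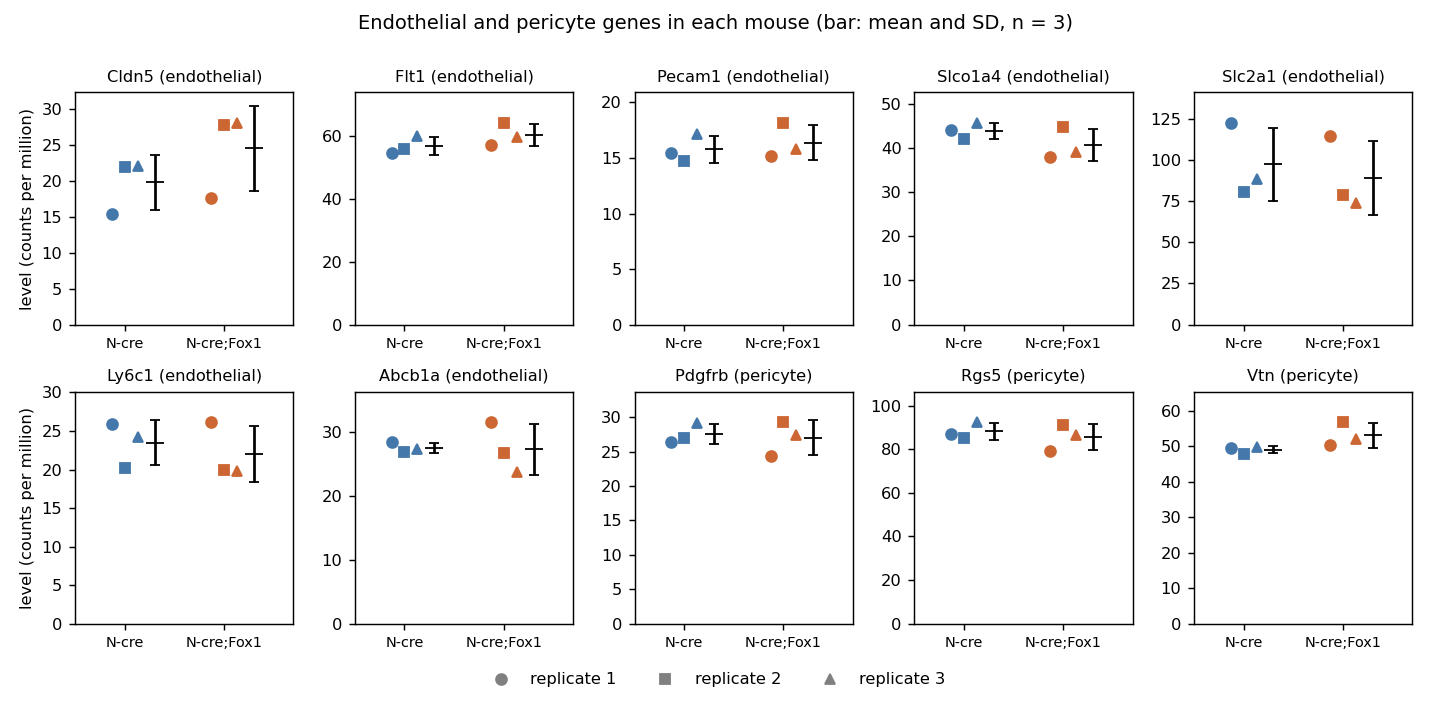
Level of each of the 10 genes in TMM-normalized CPM (y axes from 0, a scale per gene) in the 3 N-cre (blue) and 3 N-cre;Fox1 mice (orange), with the replicate number as the symbol and the mean and SD (n = 3) as the black bar. Vtn is the gene in which the genotypes do not overlap, and the replicate 1 mice (circles) are lowest for Cldn5 and highest for Slc2a1 in both genotypes.

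The tight junction and the adhesion of endothelial cells are represented by Cldn5 and Pecam1. Cldn5 (ENSMUSG00000041378.2) encodes claudin-5, the main claudin of the endothelial tight junction at the blood-brain barrier. It is a gene with 1 exon and 1 annotated isoform, on the forward strand at chr16:18776847-18778262 (mm10). Its level was 15.4, 21.9 and 22.0 CPM in the N-cre mice (replicates 1 to 3, the order kept from here on) and 17.6, 27.8 and 28.1 CPM in the N-cre;Fox1 mice. Replicate 1 was the low mouse of each genotype, and the groups overlapped, since N-cre;Fox1 replicate 1 lay below N-cre replicates 2 and 3. The mean was 19.8 ± 3.80 (SD, n = 3) against 24.5 ± 5.95 CPM, or 0.31 ± 0.256 as log2 fold change and SE (adjusted p = 0.928, edgeR). The 95% interval of the difference ran from -22.2% to 98.7%. With a term for the 2 mice with high Xist, chosen after the data were seen, the log2 fold change was 0.30 and the adjusted p 0.133, the lowest of its 16 alternatives. With 1 mouse left out, it was 0.16 without N-cre replicate 1, 0.20 without N-cre;Fox1 replicate 3 and 0.51 without N-cre;Fox1 replicate 1.

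Pecam1 (CD31, ENSMUSG00000020717.19) encodes an adhesion molecule of the immunoglobulin family at the contacts between endothelial cells. It lies on the reverse strand at chr11:106654217-106750628. Its level was 15.4, 14.7 and 17.1 CPM in N-cre and 15.2, 18.2 and 15.8 CPM in N-cre;Fox1 mice, and the groups overlapped. edgeR put the genotype difference at 0.06 ± 0.0842 (log2 fold change ± SE, adjusted p = 0.968), and the interval ran from -8.60% to 18.4%.

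The transporters of the barrier were Slc2a1, Slco1a4 and Abcb1a. Slc2a1 (ENSMUSG00000028645.11) encodes the glucose transporter GLUT1, which carries glucose from the blood into the brain. It lies on the forward strand at chr4:119108711-119137983. Its level was 122.8, 80.9 and 88.6 CPM in N-cre and 115, 79.0 and 73.8 CPM in N-cre;Fox1 mice. In each genotype replicate 1 was the high mouse, and the groups overlapped over nearly their whole range. Between genotypes the log2 fold change came to -0.13 ± 0.267 (SE, adjusted p = 0.978, edgeR). The interval ran from -44.8% to 51.2%, the widest of the 10 genes on the log2 scale, and without N-cre replicate 1 the log2 fold change was 0.08. Astrocytes also express Slc2a1, so its count is not of endothelial cells alone. Gm12867 and Gm12868, which overlap Slc2a1, held 1 to 4 counts in each mouse.

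Slco1a4 (ENSMUSG00000030237.14) encodes an organic anion transporter (Oatp1a4) of brain capillaries. It lies on the reverse strand at chr6:141805440-141856199. Its level was 43.99, 42.0 and 45.7 CPM in N-cre and 38.1, 44.7 and 39.2 CPM in N-cre;Fox1 mice. N-cre;Fox1 replicate 2 lay among the N-cre mice, and the other two lay below all of them. On the log2 scale the fold change was -0.11 ± 0.0622 (SE, adjusted p = 0.849, edgeR), and the interval ran from -15.9% to 2.00%.

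Abcb1a (ENSMUSG00000040584.8) encodes the efflux pump P-glycoprotein on the side of the capillary that faces the blood. It lies on the forward strand at chr5:8660077-8748575. Its level was 28.4, 26.8 and 27.3 CPM in N-cre and 31.6, 26.6 and 23.6 CPM in N-cre;Fox1 mice. The N-cre;Fox1 mice spread to both sides of the N-cre mice, with an SD of 3.99 against 0.808 CPM. edgeR put the genotype difference at -0.01 ± 0.0968 (log2 fold change ± SE, adjusted p = 0.995), and the interval ran from -15.1% to 15.8%. Gm42686, which overlaps Abcb1a, held 5.0 to 19.0 counts per mouse.

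Ly6c1 (ENSMUSG00000079018.10) encodes a small surface protein held by a lipid anchor that marks brain endothelium. It lies on the reverse strand at chr15:75044018-75048830 and has near-identical relatives in the Ly6 cluster, so its counts depend on how reads were divided among them. Its level was 25.9, 20.2 and 24.2 CPM in N-cre and 26.2, 19.9 and 19.8 CPM in N-cre;Fox1 mice, and the groups overlapped. Between genotypes the log2 fold change came to -0.10 ± 0.143 (SE, adjusted p = 0.970, edgeR), and the interval ran from -26.5% to 19.2%.

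Flt1 (ENSMUSG00000029648.13) encodes VEGF receptor 1, which binds VEGF tightly and signals weakly, and which is also made as a soluble protein that holds VEGF outside the cell. It lies on the reverse strand at chr5:147561604-147726011. As a sum of its isoforms its level was 54.4, 55.7 and 60.0 CPM in N-cre and 57.03, 64.1 and 59.8 CPM in N-cre;Fox1 mice. The 2 groups overlapped from 57.03 to 60.0 CPM. On the log2 scale the fold change was 0.09 ± 0.0511 (SE, adjusted p = 0.849, edgeR), and the interval ran from -1.61% to 15.2%.

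The 3 pericyte genes had small spreads between mice, with the highest mouse at 1.17 to 1.21 times the lowest. Pdgfrb (ENSMUSG00000024620.11) encodes the receptor of PDGF-B on pericytes, and lies on the forward strand at chr18:61045150-61085061. Its level was 26.4, 27 and 29.2 CPM in N-cre and 24.3, 29.3 and 27.4 CPM in N-cre;Fox1 mice, and N-cre;Fox1 mice held both the lowest and the highest value. edgeR put the genotype difference at -0.03 ± 0.0712 (log2 fold change ± SE, adjusted p = 0.984), and the interval ran from -12.0% to 9.53%.

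Rgs5 (ENSMUSG00000026678.10) encodes a regulator of G protein signalling that is abundant in pericytes, and lies on the forward strand at chr1:169655501-169695813. Its level was 86.9, 85.3 and 92.5 CPM in N-cre and 79.4, 90.9 and 86.7 CPM in N-cre;Fox1 mice. N-cre;Fox1 replicate 1 lay below the other 5 mice. Between genotypes the log2 fold change came to -0.04 ± 0.0523 (SE, adjusted p = 0.961, edgeR), and the interval ran from -10.4% to 5.32%.

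Vtn (ENSMUSG00000017344.4) encodes vitronectin, an adhesion protein that brain pericytes release, and lies on the forward strand at chr11:78499091-78502324. Its level was 49.5, 47.9 and 49.9 CPM in N-cre and 50.3, 56.9 and 52.0 CPM in N-cre;Fox1 mice. The 3 N-cre;Fox1 mice lay above the 3 N-cre mice. edgeR put the genotype difference at 0.11 ± 0.0476 (log2 fold change ± SE), and the interval ran from 0.566% to 16.4%. Its unadjusted p was 0.0372 and its adjusted p 0.799 in the same edgeR test. Without N-cre replicate 3 and N-cre;Fox1 replicate 2, the mice with choroid plexus RNA, the log2 fold change of Vtn was 0.07 with an adjusted p of 0.933 in edgeR.

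**Figure D2:**
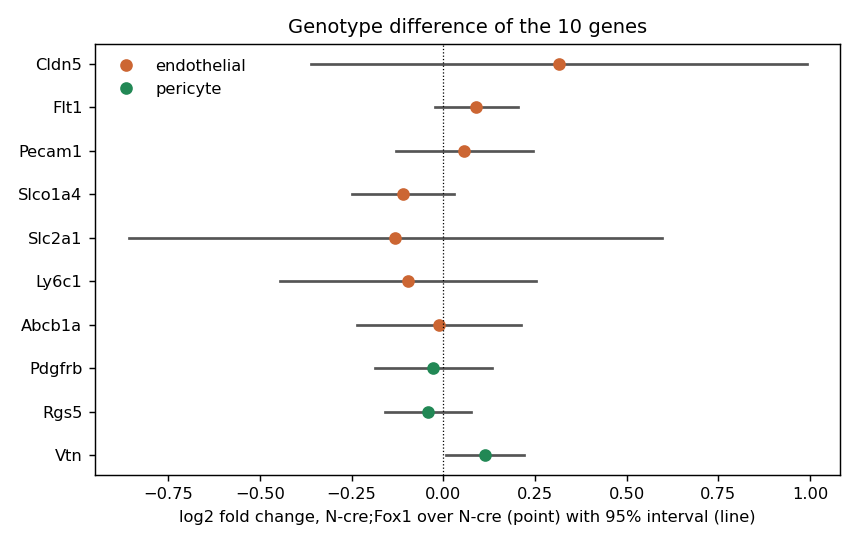
Log2 fold change of N-cre;Fox1 over N-cre mice for each of the 10 genes (point) with its 95% interval from edgeR (line) and a dotted line at 0. The intervals of 9 genes include 0, that of Vtn starts at 0.0081, and those of Cldn5 and Slc2a1 are the widest.

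The 2 isoforms that carried the counts of Flt1 are the membrane and the soluble form of the receptor. Flt1-202 has 30 exons and codes for 1333 amino acids, with the extracellular part, the membrane segment and the kinase. Flt1-203 shares the first 13 exons in the order of the transcript, reads through the end of exon 13 into the intron, and ends its reading frame after 95 further bases, at 688 amino acids. It has none of the 17 exons that follow in Flt1-202, and so lacks the membrane segment and the kinase. The sequences below are shown because the soluble and the membrane form part at this point. Each gives the last 45 bases of shared exon 13 in lower case, followed in capitals by 95 bases that belong to 1 of the 2 forms, 5′ to 3′ on the transcript. The capitals of Flt1-202 are the start of exon 14, which lies at chr5:147634377-147634523, and those of Flt1-203 lie at chr5:147639130-147639224 and end with the stop codon.
Flt1-202: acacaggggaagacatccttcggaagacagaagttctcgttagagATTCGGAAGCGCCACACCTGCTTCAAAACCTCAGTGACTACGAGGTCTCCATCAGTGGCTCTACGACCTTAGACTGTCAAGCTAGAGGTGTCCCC
Flt1-203: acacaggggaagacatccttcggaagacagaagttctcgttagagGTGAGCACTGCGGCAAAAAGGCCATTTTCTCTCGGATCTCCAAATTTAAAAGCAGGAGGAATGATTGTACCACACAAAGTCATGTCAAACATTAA

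Isoforms were tested in the same way, over 50556 isoforms. The membrane form Flt1-202 was at 39.2, 38.4 and 40.5 CPM in N-cre and 40.6, 44.6 and 42.1 CPM in N-cre;Fox1 mice. All N-cre;Fox1 mice lay above all N-cre mice. On the log2 scale the fold change was 0.11 ± 0.0502 (SE, adjusted p = 0.990, edgeR), and the interval ran from -0.984% to 17.1%. The soluble form Flt1-203 was at 15.2, 17.2 and 19.4 CPM in N-cre and 16.4, 19.5 and 17.6 CPM in N-cre;Fox1 mice, and the groups overlapped. edgeR put the genotype difference at 0.05 ± 0.112 (log2 fold change ± SE, adjusted p = 0.992), and the interval ran from -14.3% to 24.5%. Per length, the membrane form was at 13.4 ± 0.365 TPM (SD, n = 3) in N-cre and 14.5 ± 0.808 TPM in N-cre;Fox1 mice, and the soluble form at 6.42 ± 0.787 and 6.66 ± 0.649 TPM.

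The soluble form therefore took 28.0%, 30.9% and 32.3% of the Flt1 counts in N-cre and 28.7%, 30.4% and 29.5% in N-cre;Fox1 mice. The mean share was 30.4% ± 2.21 (SD, n = 3) and 29.6% ± 0.846, and the difference of -0.83 percentage points had a p of 0.6 in a two-sided exact permutation test over the mice. With 3 mice against 3 such a test cannot give a p below 0.1. The 95% Wilson interval of the share, which covers counting error only, was 26.5% to 29.5% of 3362 counts in N-cre replicate 1 and 30.5% to 34.2% of 2431 counts in N-cre replicate 3. These 2 mice, the lowest and the highest of the N-cre group, had intervals that did not overlap. The N-cre;Fox1 shares lay within the range that the N-cre mice spanned. How RSEM divided the reads of the shared exons also enters the shares, and the intervals do not cover it. Of the 6292 bases of Flt1-203, 4066 are read-through into the intron. The libraries were of total RNA, and the counts do not separate unspliced Flt1 RNA in that stretch from the soluble form. The part of unspliced RNA in the levels and shares of Flt1-203 was not tested. Divided by transcript length, the share was 32.2% ± 2.29 in N-cre and 31.4% ± 0.848 in N-cre;Fox1 mice.

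**Figure D3:**
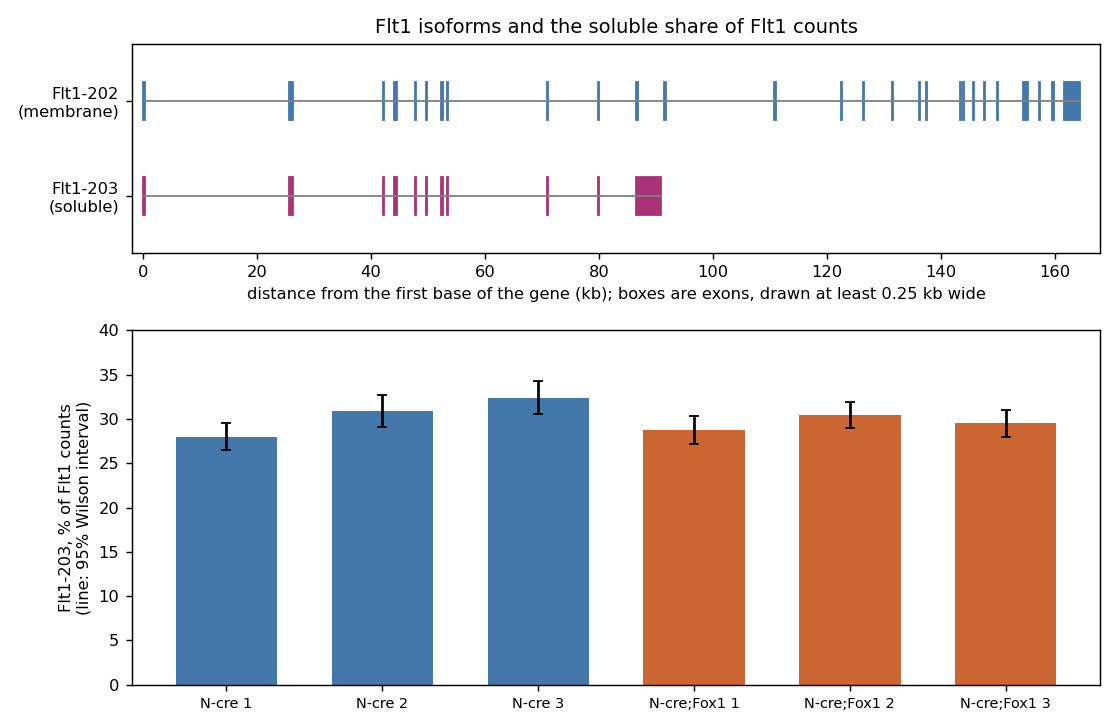
Top, exons of Flt1-202 (membrane form) and Flt1-203 (soluble form) by distance from the first base of the gene in kb; bottom, the share of the Flt1 counts on Flt1-203 in each mouse in percent, with 95% Wilson intervals of counting error. The shares run from 28.0% to 32.3% in N-cre (blue) and from 28.7% to 30.4% in N-cre;Fox1 mice (orange).

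Of the 25 isoforms tested, 0 passed an adjusted p of 0.05 in edgeR, as in all 50556 isoforms (0.0%), and the adjusted p-values lay between 0.990 and 1.00. At an unadjusted p under 0.05 the count was 1 of 25, where 4.78% of all isoforms passed, and DESeq2 called 0 of the 25 and 215 isoforms in all. The log2 fold change was above 0 for 14 and below 0 for 11, with a median of 0.05. All N-cre;Fox1 mice lay above all N-cre mice for 2 isoforms, Flt1-202 and Vtn-201, as in 5.86% of all isoforms, and below them for 1, Slco1a4-203, as in 5.66%.

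Pecam1 divided its counts most evenly, over 4 isoforms. Short exons near the end of the reading frame separate Pecam1-202, Pecam1-203 and Pecam1-204. Pecam1-202 (716 amino acids) has a 57-base exon, exon 14 of 15, that Pecam1-203 (697 amino acids) skips without a shift of the frame. Pecam1-204 (727 amino acids) and Pecam1-207 (626 amino acids) hold a further 23-base exon between it and the last coding exon, and its length is not a multiple of 3, so the frame ends differently. Pecam1-207 differs from Pecam1-204 elsewhere, by a 303-base exon that it lacks. The sequences below show these 2 exons in capitals with 20 bases of the neighbouring exons on each side, because they set the first 3 of these isoforms apart. The 57-base exon lies at chr11:106671742-106671798 and the 23-base exon at chr11:106662002-106662024.
Pecam1-202: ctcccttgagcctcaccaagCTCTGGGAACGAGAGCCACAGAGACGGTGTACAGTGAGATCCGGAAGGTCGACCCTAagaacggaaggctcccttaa
Pecam1-204: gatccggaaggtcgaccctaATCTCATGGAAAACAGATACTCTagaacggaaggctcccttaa

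Pecam1-203 took 42.4%, 25.7% and 36.8% of the Pecam1 counts in N-cre and 34.8%, 35.5% and 54.9% in N-cre;Fox1 mice. Pecam1-202 took 35.6%, 37.6% and 16.7% in N-cre and 42.8%, 39.4% and 26.4% in N-cre;Fox1 mice. Replicate 3 was the low mouse for Pecam1-202 in both genotypes, and the groups overlapped for both isoforms. Pecam1-204 took 8.50%, 34.8% and 33.9% in N-cre and 12.2%, 10.6% and 10.6% in N-cre;Fox1 mice. N-cre replicates 2 and 3 thus stood above every other mouse, and N-cre replicate 1 was the lowest of the 6. The mean of Pecam1-204 was 25.7% ± 14.9 (SD, n = 3) against 11.2% ± 0.909, with an exact permutation p of 0.4, and in CPM its log2 fold change was -1.16 ± 0.527 (SE, adjusted p = 0.990, edgeR). Pecam1-207 took 0.0% in N-cre replicate 2 and 7.65% to 13.7% in the other 5 mice. Among the counts on Pecam1-202, Pecam1-203, Pecam1-204 and Pecam1-207 alone, the 57-base exon was in 64.5% ± 8.62 in N-cre mice. In N-cre;Fox1 mice it was in 57.9% ± 11.3, with an exact permutation p of 0.6 for the difference. The 4 isoforms share most of their length, and how RSEM divided the reads between them enters these shares.

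Slc2a1 divided its counts between 2 isoforms. Slc2a1-201 has 10 exons and codes for the transporter of 492 amino acids, and Slc2a1-204 is annotated as a target of nonsense-mediated decay, a pathway that removes RNAs with an early stop codon. Slc2a1-204 took 21.9%, 18.1% and 22.4% of the Slc2a1 counts in N-cre and 17.3%, 18.1% and 24.2% in N-cre;Fox1 mice. N-cre;Fox1 mice held both the lowest and the highest share, and the mean was 20.8% ± 2.39 (SD, n = 3) against 19.9% ± 3.78, with an exact permutation p of 0.9. In CPM, Slc2a1-201 was at 95.6, 66.2 and 68.7 in N-cre and 94.8, 64.7 and 55.9 in N-cre;Fox1 mice. Slc2a1-204 was at 26.9, 14.6 and 19.9 CPM in N-cre and 19.9, 14.3 and 17.9 CPM in N-cre;Fox1 mice. Replicate 1 was the high mouse of its genotype for both isoforms.

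Slco1a4-203, the main isoform of the anion transporter with 17 exons, was at 40.6, 38.3 and 44.01 CPM in N-cre and 32.9, 37.9 and 36.1 CPM in N-cre;Fox1 mice. All N-cre;Fox1 mice lay below all N-cre mice. In edgeR this gave a log2 fold change of -0.20 ± 0.0753 (SE), and an adjusted p of 0.990 (0.0338 unadjusted), and the interval ran from -23.4% to -1.46%. Slco1a4-201, which codes for the same number of amino acids (670) in 14 exons, was at 0.714, 2.01 and 0.0 CPM in N-cre and 2.96, 3.83 and 1.10 CPM in N-cre;Fox1 mice, with a log2 fold change of 1.53 ± 1.20 (SE) and overlapping groups. Slco1a4-202 was at 2.62, 1.68 and 1.71 CPM in N-cre and 2.18, 2.98 and 1.96 CPM in N-cre;Fox1 mice and overlapped, at 0.25 ± 0.262 as log2 fold change and SE (adjusted p = 0.990, edgeR). It took 4.57% ± 1.21 (SD, n = 3) of the Slco1a4 counts in N-cre and 5.80% ± 0.832 in N-cre;Fox1 mice, with an exact permutation p of 0.3. As a share of Slco1a4 counts, Slco1a4-203 took 93.2% ± 2.66 in N-cre and 87.8% ± 3.91 in N-cre;Fox1 mice, with an exact permutation p of 0.2 and overlapping groups.

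Ly6c1-201 took 80.2% ± 3.19 of the Ly6c1 counts in N-cre and 76.2% ± 5.62 in N-cre;Fox1 mice (exact permutation p = 0.5), and Ly6c1-202, which codes for the same number of amino acids (131), took 9.93% ± 2.89 and 14.2% ± 2.84 (exact permutation p = 0.3). The smaller tested isoforms Ly6c1-203, Ly6c1-204 and Ly6c1-205 held 1.28% to 4.86% of the gene on average. In all, 12 shares in 5 genes were compared, the groups overlapped in every one, and the lowest p was 0.2, or 0.8 after adjustment over the 12.

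The other 5 genes each gave nearly all their counts to 1 isoform. The only isoform of Cldn5 is Cldn5-201. Rgs5-201 held 99.98% of Rgs5, Pdgfrb-201 99.7% of Pdgfrb and Abcb1a-201 98.2% of Abcb1a. Vtn-201 held 97.3% of Vtn, at 48.3, 45.9 and 48.6 CPM in N-cre and 49.1, 55.8 and 50.7 CPM in N-cre;Fox1 mice, a log2 fold change of 0.12 with an adjusted p of 0.990 in edgeR. The retained intron forms Vtn-202, Vtn-203 and Vtn-204 together with Abcb1a-202 were each below 1 CPM in every mouse.

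**Figure D4:**
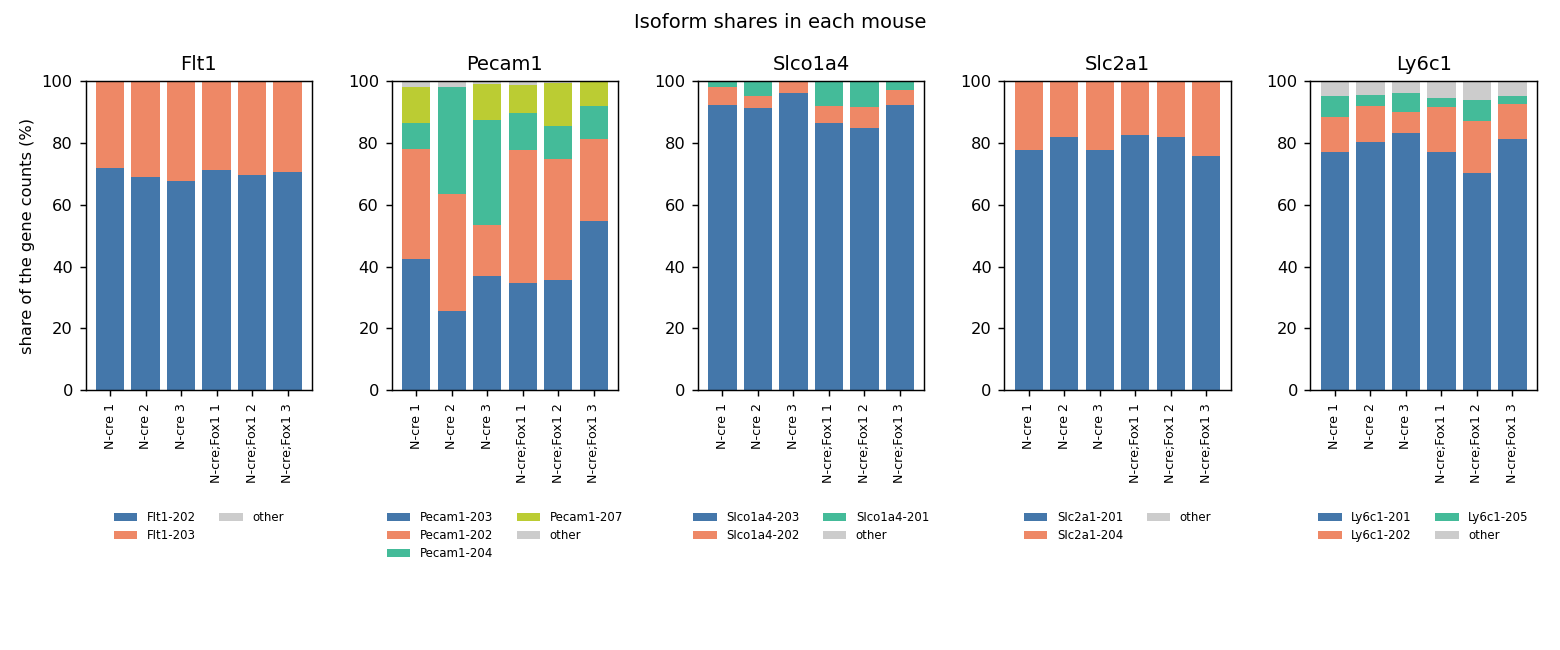
Share of the counts of Flt1, Pecam1, Slco1a4, Slc2a1 and Ly6c1 on each isoform with a mean share of at least 4% (colours) and on the others (grey), in percent, for each of the 6 mice. Pecam1-204 takes 34.8% and 33.9% in 2 N-cre mice (replicates 2 and 3), against 8.50% to 12.2% in the other mice, while the division of the other 4 genes varies less between mice.

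The spread between mice differed from gene to gene. The highest mouse was 1.83 times the lowest for Cldn5 and 1.66 times for Slc2a1, and 1.17 to 1.33 times for the other 8. The replicate 1 mice, the 2 with high Xist, both lay above the other 4 mice for Slc2a1, Ly6c1 and Abcb1a. Slc2a1 was at 1.45 times the mean of the other 2 mice of its genotype in N-cre replicate 1 and at 1.502 times in N-cre;Fox1 replicate 1. Both lay below the other 4 for Cldn5, at 0.7 and 0.631 times, and for Pdgfrb, at 0.94 and 0.857 times. Of all genes tested, 8.01% had both of these mice above the other 4 and 8.11% had both below. The part of Xist or of any other property of these 2 mice in those levels was not tested.

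N-cre replicate 3 and N-cre;Fox1 replicate 2, the mice with choroid plexus RNA, were each the highest mouse of their genotype for Flt1, Pecam1, Slco1a4, Pdgfrb, Rgs5 and Vtn. The likeness of these 2 mice was not limited to the 10 genes. Over 18924 genes their deviations from their group means correlated at 0.607. The share of all genes with both mice highest was not computed. Fibroblast genes, 8 of 8 detected, summed to 189.8 and 298 CPM in these 2 mice and to 123 to 141 CPM in the other 4. Igf2 led this sum in both, at 91.8 and 175 CPM, against 38.8 to 53.4 CPM in the other 4. Dcn, next in mean level, was at 53.7 and 58.5 CPM against 49.0 to 56.4 CPM. The cells that gave the Igf2 RNA were not tested. Smooth muscle genes, 6 of 6 detected, summed to 64.0 and 78.1 CPM against 52.9 to 59.4 CPM. Red blood cell genes summed to 113 and 105 CPM in the same mice and to 67.7 to 93.1 CPM in the others. The part of these other cells in the levels of the 10 genes was not tested. Without both mice the log2 fold changes of the 10 genes ranged from -0.15 for Slco1a4 to 0.30 for Cldn5, and 0 of the 10 passed the threshold in edgeR.

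Summed over the 7 endothelial genes, the level was 306, 262 and 285 CPM in N-cre and 300.5, 280.4 and 260.0 CPM in N-cre;Fox1 mice. Summed over the 3 pericyte genes, it was 163, 160.1 and 172 CPM in N-cre and 154, 177 and 166 CPM in N-cre;Fox1 mice. Both sums overlapped between the genotypes, and N-cre;Fox1 mice held the lowest endothelial sum and both extremes of the pericyte sum.

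**Figure D5:**
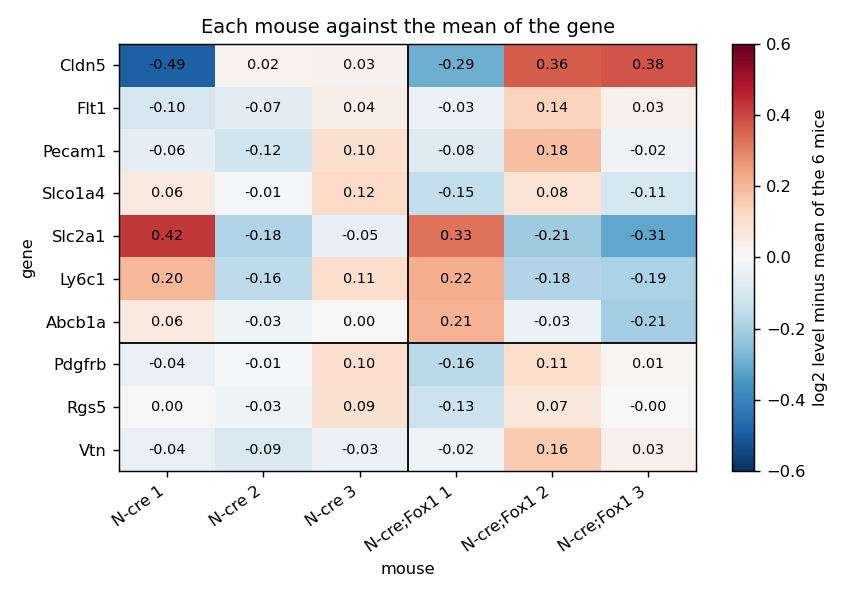
Log2 level of each of the 10 genes (rows; endothelial above the line, pericyte below) in each mouse (columns) minus the mean of the gene over the 6 mice. Cldn5 and Slc2a1 deviate in opposite directions in the replicate 1 mice (-0.49 and 0.42 in N-cre, -0.29 and 0.33 in N-cre;Fox1). The pericyte genes, and Flt1 and Slco1a4 among the endothelial genes, stay within -0.16 and 0.16 in every mouse.

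Of 28 other endothelial genes, all tested, 11 had a log2 fold change above 0 and 17 below, with a median of -0.03, and 0 passed an adjusted p of 0.05 in edgeR. At an unadjusted p under 0.05, Slc16a1 (the monocarboxylate transporter MCT1) and the adhesion molecule Icam2 were higher in all N-cre;Fox1 mice. Over all genes tested, 6.19% had such a p in edgeR, 6.04% were higher in all N-cre;Fox1 mice and 6.1% lower. Icam2 was at a low level, 1.83, 1.59 and 2.00 CPM in N-cre and 2.60, 2.37 and 2.12 CPM in N-cre;Fox1 mice. Slc16a1 was at 33.1, 36.3 and 33.0 CPM in N-cre and 37.2, 39.5 and 38.8 CPM in N-cre;Fox1 mice, with a log2 fold change of 0.18 and an adjusted p of 0.660 in edgeR. Cd34, a sialomucin of endothelial cells, was lower in all N-cre;Fox1 mice, at 55.0, 46.7 and 48.9 CPM against 44.1, 41.8 and 43.5 CPM, with a log2 fold change of -0.22 and an adjusted p of 0.635 in edgeR. The most abundant of the list, the amino acid transporter Slc7a5 and the thyroid hormone transporter Slco1c1, had log2 fold changes of -0.07 and 0.35 with adjusted p-values of 0.958 and 0.899 in edgeR. Slco1c1 is also made by the choroid plexus, and was highest in the 2 mice with that RNA, at 62.5 and 85.5 CPM.

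Of 10 other pericyte genes, 4 lay above 0 and 6 below, with a median of -0.07. Notch3, a Notch receptor of pericytes and smooth muscle, was at 19.5, 21.2 and 22.0 CPM in N-cre and 17.4, 19.4 and 18.5 CPM in N-cre;Fox1 mice. All N-cre;Fox1 mice lay lower, as in 6.1% of all genes, with a log2 fold change of -0.18 and an adjusted p of 0.772 in edgeR. For Ndufa4l2 all N-cre;Fox1 mice lay higher, as in 6.04% of all genes. Its log2 fold change was 0.22 and its adjusted p 0.877 in edgeR. Cspg4, which encodes the proteoglycan NG2 and is shared with oligodendrocyte precursors, had a log2 fold change of -0.05. The potassium channel subunit gene Abcc9 had a log2 fold change of -0.11 and Atp13a5 one of 0.03.

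Among the ligands and receptors around Flt1 and Pdgfrb (Vegf, angiopoietin and Pdgf families), 12 of 18 lay above 0 and 6 below, with a median of 0.05. Over all genes tested, 9460 of 18924 lay above 0. Nrp1, a co-receptor of VEGF, was at 64.5, 70.9 and 67.8 CPM in N-cre and 76.8, 71.2 and 73.1 CPM in N-cre;Fox1 mice. All N-cre;Fox1 mice lay higher, with a log2 fold change of 0.12, an unadjusted p of 0.0177 and an adjusted p of 0.770 in edgeR. Vegfc, a ligand of the lymphatic VEGF receptor, was also higher in all N-cre;Fox1 mice, at a log2 fold change of 0.29 and an adjusted p of 0.799 in edgeR. Its level was low, 2.43 to 2.59 CPM in N-cre and 2.78 to 3.26 CPM in N-cre;Fox1 mice. Of all genes tested, 6.04% were higher in all N-cre;Fox1 mice and 6.19% had an unadjusted p under 0.05 in edgeR. Vegfa, the main ligand that Flt1 binds, was at 60.8, 71.3 and 70.0 CPM in N-cre and 67.3, 80.3 and 72.9 CPM in N-cre;Fox1 mice and overlapped.

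Of 9 tight junction partners of Cldn5, 9 lay above 0, with a median of 0.08 and a range of 0.02 to 0.35, where 9460 of all 18924 genes lay above 0, and 0 passed an adjusted p of 0.05 in edgeR. N-cre;Fox1 replicate 2, the mouse with the most choroid plexus RNA, was the highest of the 6 for Ocln (18.3 CPM), F11r (10.3 CPM), Cgn (12.4 CPM), Marveld2 (1.56 CPM) and Lsr. It was also the highest for Tjp1 (118 CPM) and Cldn12 (33.7 CPM). For F11r the other N-cre;Fox1 mice, at 5.91 and 5.57 CPM, lay below all N-cre mice. Without both mice with choroid plexus RNA, 6 of the 9 lay above 0 and 3 below, F11r, Marveld2 and Cgn. The part of that RNA in the values of these genes was not tested beyond this. Tjp1, which encodes the scaffold ZO-1, was at 100.4, 103 and 101 CPM in N-cre and 113, 118 and 112 CPM in N-cre;Fox1 mice. All N-cre;Fox1 mice lay above all N-cre mice, at a log2 fold change of 0.18 ± 0.0355 (SE), and the adjusted p was 0.350 in edgeR (0.000536 unadjusted). Tjp1 is expressed by many cell types of the brain, astrocytes and neurons included. Lsr, a protein of tricellular contacts, was at 4.43, 4.14 and 4.90 CPM in N-cre and 5.20, 6.49 and 5.45 CPM in N-cre;Fox1 mice, with a log2 fold change of 0.35 and an adjusted p of 0.769 in edgeR. The junction adhesion molecule Jam2 was also higher in all N-cre;Fox1 mice, by a log2 fold change of 0.08. Of all genes tested, 6.04% were higher in all N-cre;Fox1 mice.

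In the vascular basement membrane 11 of 13 genes lay above 0 and 2 below, with a median of 0.09, where 9460 of all 18924 genes lay above 0. Both mice with choroid plexus RNA stood above the other 4 for Lama5, Nid2, Hspg2, Lamb1 and Lamb2. For Lamb1 and Lamb2 the gap was smaller. Lamb1 was at 53.05 and 58.1 CPM in these 2 mice against 50.3 to 52.8, and Lamb2 at 39.4 and 45.5 CPM against 35.1 to 38.7. Lama5, a laminin chain gene, was at 29.1 and 41.6 CPM in these 2 mice and at 18.7 to 20.6 CPM in the others. Nid2, which encodes nidogen-2, was at 10.8 and 15.03 CPM against 5.12 to 5.78, and Hspg2, the perlecan gene, at 23.7 and 33.05 CPM against 16.2 to 17.03. Without both mice 11 of 13 lay above 0, with a median of 0.02. Lamc1, another laminin chain gene, was the 1 gene with an unadjusted p under 0.05, at a log2 fold change of 0.13 and an adjusted p of 0.772 in edgeR, and its groups overlapped. The collagen IV genes Col4a1 and Col4a2 had log2 fold changes of 0.06 and 0.02, Sparc 0.15 and Agrn -0.04. In the Wnt signal of the barrier 9 of 13 genes lay above 0 and 4 below, with a median of 0.02, and 0 had an unadjusted p under 0.05. Its ligand gene Wnt7b was at -0.07, the receptor gene Lrp6 at 0.12, Ctnnb1 (beta-catenin) at 0.02 and the target gene Axin2 at 0.05 on the log2 scale of the fold change. Smooth muscle genes (4 of 6 above 0, median 0.08) and fibroblast genes (5 of 8, median 0.04) had 0 genes with an unadjusted p under 0.05. Without both mice with choroid plexus RNA, 0 of 6 and 2 of 8 lay above 0. In that edgeR fit 0 of the 6 smooth muscle and 4 of the 8 fibroblast genes had an unadjusted p under 0.05. Over all genes in that fit it was 1098 of 19126.

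Relatives of the 10 genes were listed because reads of near-identical copies may be divided between them. Of 10 relatives, 8 were tested, Slco1a1 was at 0 in every mouse and Slco1a6 did not pass the filter. Ly6a, a relative of Ly6c1, was at 15.7, 14.5 and 14.9 CPM in N-cre and 16.7, 12.1 and 11.8 CPM in N-cre;Fox1 mice. Ly6c2, another relative of Ly6c1, was at 0.149 to 0.534 CPM over the 6 mice. Abcb1b, the second P-glycoprotein gene, was at 3.44 to 4.54 CPM in N-cre and 3.45 to 4.37 CPM in N-cre;Fox1 mice, so Abcb1a was by far the larger of the pair. Slc2a3, the glucose transporter gene of neurons, had a log2 fold change of 0.04 with overlapping groups. Rgs4, a relative of Rgs5 made by neurons, had a log2 fold change of 0.17, an unadjusted p of 0.0464 and an adjusted p of 0.799 in edgeR.

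Markers of the other cells of the tissue are given as measured. Of 8 astrocyte genes 5 lay above 0 and 3 below. Gfap, Aqp4, Slc1a2 and Gja1 (log2 fold changes of 0.38, 0.21, 0.12 and 0.10) were each higher in all N-cre;Fox1 mice, as were 6.04% of all genes tested. Their adjusted p-values were 0.3195, 0.595, 0.769 and 0.756 in edgeR, and Fgfr3 had a log2 fold change of -0.21 and an unadjusted p of 0.0265 in the same test. The log2 fold changes of Slc1a3 and Aldh1l1 were -0.02 and -0.14. Summed, the astrocyte genes were at 4236 to 4440 CPM in N-cre and 4451 to 4832 CPM in N-cre;Fox1 mice. Slc1a2 made up the largest part of this sum, at a mean of 2128 CPM over the mice. Microglia genes (4 of 8 above 0, median -0.02) and neuron genes (1 of 8 above 0, median -0.02) had 0 genes with an unadjusted p under 0.05. The part of astrocytes in the values of Slc2a1 and Tjp1 was not tested.

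The genes whose levels over the 6 mice were nearest to the mean pattern of the 7 endothelial genes were Lamc3, Tac2, Ccdc126, B4galt1 and Fam160a1. Nearness was the mean absolute difference of log2 CPM, scaled to mean 0 and SD 1 over the 6 mice, and it was 0.16 for Lamc3 and 0.211 for Fam160a1 in a search of 13728 genes. For the 3 pericyte genes the nearest were Slc46a1, Pigv, Cep126, Cdan1 and Arsg, at 0.0552 to 0.104. Slc46a1 was at 18.6, 18.5 and 20.4 CPM in N-cre and 17.2, 21.4 and 19.5 CPM in N-cre;Fox1 mice. Its highest value, in N-cre;Fox1 replicate 2, follows from the search, since the pericyte mean pattern is highest in that mouse. The pattern rests on 6 libraries and is a description.

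RBFOX proteins bind RNA at TGCATG (written as DNA), and the spliced sense strand of the main isoform of each gene was searched for these letters. Flt1-202, Slco1a4-203 and Abcb1a-201 held 2 matches each, and Pecam1-203, Pdgfrb-201 and Rgs5-201 held 1 each. Cldn5-201, Slc2a1-201, Ly6c1-201 and Vtn-201 held 0. The share of coding transcripts of like length (within 10%) with a match ran from 20.5% for the length of Ly6c1-201 to 84.2% for that of Flt1-202. Introns were not searched, and a match is not evidence of binding.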

How the data were processed

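Hippocampal RNA of 3 mice per genotype was sequenced as stranded total RNA libraries, in which ribosomal RNA is depleted. Read pairs were trimmed by the authors (Cutadapt 1.18) and aligned to the mm10 genome (STAR 2.5.2b), and the authors estimated with RSEM 1.3.0 how many read pairs each GENCODE isoform gave. The deposited values are these expected counts, not normalized, for 133944 isoforms, and 81.9% to 82.7% of the values above 0 per mouse were not whole numbers, since pairs that fit more than 1 isoform are split between them. The strand setting of RSEM and perfusion of these mice are not given in the sources used here.

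Genotype and replicate number came from the sample labels. The 10 genes and all gene lists were chosen with earlier results of these data known. Expected counts were rounded, isoforms were also summed by gene symbol, low counts were removed with filterByExpr (minimum count 10, minimum total 15), and edgeR 4.0.16 in R 4.3.3 tested the genotype term by quasi-likelihood after TMM scaling (Benjamini-Hochberg over 50556 isoforms or 18924 genes, threshold 0.05). The authors' EBSeq test was not used here. Shares of isoforms with at least 5% of their gene were compared by two-sided exact permutation tests over mice in SciPy 1.17.1. TPM, exons, coordinates and sequences used a later GENCODE annotation of mm10 (M21), which holds 130826 of the isoforms with the same identifier and version and 133445 with the same identifier. Cldn5-201 has a newer version there. The fits were tested on simulated data.

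The text names all 10 genes, their tested isoforms and those with at least 5% of their gene, and up to 4 genes of each list with the highest mean level plus those with an unadjusted p under 0.05. It also names the 5 genes nearest to each mean pattern among genes whose mean normalized count reached 100, with 0.5 CPM added before the logarithm. The expected counts, the read pairs assigned to isoforms, summed to 40463587 to 62141336 per mouse, and the total of sequenced pairs was not used here. Alternatives tried were scaling by upper quartiles or by DESeq2's size factors, a filter of only 1 count, at least 10 counts in every mouse, DESeq2 1.42.0, limma-voom (limma 3.58.1), expected counts not rounded, a replicate block, an adjusted p under 0.01, each mouse left out, and length-divided or rounded shares. A term for mice with over 1000 Xist counts, and leaving out both mice with choroid plexus RNA, were added after the data were seen. One sequence is not reported here.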

Additional observations from a re-analysis of the deposited data

How the results depend on the processing

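Across the alternatives, 0 of the 10 genes and 0 of the 25 tested isoforms passed an adjusted p of 0.05. The number of genes called over the whole table was 5, and became 3 at an adjusted p under 0.01, 45 with no filter beyond 1 count, 50 with DESeq2, 11 with a term for high Xist and 2 to 29 with each mouse left out in turn, the 29 without N-cre;Fox1 replicate 1. The number of isoforms called was 0 (2419 at an unadjusted p under 0.05 in edgeR), and became 10 with no filter beyond 1 count, 6 with at least 10 counts in every mouse, 215 with DESeq2 and 1 with expected counts not rounded. The causes of these shifts were not tested.

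Small log2 fold changes crossed 0. Abcb1a-201 went from 0.01 to -0.005 with upper quartile normalization, -0.0151 with limma-voom, -0.0038 with the replicate block and -0.0026 with the Xist term, and the Abcb1a gene went from -0.01 to 0.0012 without both mice with choroid plexus RNA. With each mouse left out in turn, the log2 fold change ran from -0.0211 to 0.124 for Pecam1, -0.349 to 0.0775 for Slc2a1, -0.124 to 0.0817 for Abcb1a, -0.0869 to 0.0479 for Pdgfrb and -0.0845 to 0.0144 for Rgs5. Among isoforms it ran from -0.125 to 0.0964 for Abcb1a-201, -0.0387 to 0.137 for Flt1-203, -0.03 to 0.565 for Ly6c1-203, -0.106 to 0.0264 for Pdgfrb-201 and -0.177 to 0.891 for Pecam1-207. For Rgs5-201 it ran from -0.0906 to 0.0044, for Slc2a1-201 from -0.356 to 0.0864, for Slc2a1-204 from -0.436 to 0.0059 and for Vtn-202 from -0.0908 to 0.47. Differences in share ran from -0.0873 to 2.15 percentage points for Flt1-202, -2.04 to 0.137 for Flt1-203, -0.399 to 11.1 for Pecam1-202, -1.57 to 4.32 for Pecam1-207, -0.278 to 3.13 for Slc2a1-201 and -3.10 to 0.367 for Slc2a1-204. The other genes, isoforms and shares kept their direction under the alternatives run.

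The main test did not treat same-numbered mice as pairs. The deviations of same-numbered mice from their group means correlated at 0.496, -0.21 and -0.358 over genes. The highest value was 0.607, between N-cre replicate 3 and N-cre;Fox1 replicate 2. Such values measure only likeness of RNA levels, and cannot show whether same-numbered mice shared a litter or a batch. With the replicate block 5 genes and 0 isoforms passed, and it changed no call of the 10 genes. With 3 mice per genotype, the interval of the difference was -44.8% to 51.2% for Slc2a1 and -22.2% to 98.7% for Cldn5.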
